A study of Mus musculus with 47 samples.

Results

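The 9 complement genes described here are C1qa, C1qb, C1qc, C4b, C3, C3ar1, C5ar1, Serping1 and Cd59a, a list of names set with earlier results of these data known, out of the 35486 genes of the count table. Their RNA was measured by sequencing in the hippocampus of 47 male C57BL/6J mice. The Young Veh group held 13 mice aged 3.75 to 5.26 months and the Young PF4 group 12 mice aged 4.08 to 5.03 months. The Old Veh group held 12 mice aged 17.47 to 19.97 months and the Old PF4 group 10 mice aged 17.4 to 20.23 months. Mice received vehicle (Veh) or mouse platelet factor 4 (PF4), a chemokine that platelets release, by intraperitoneal injection. The count data address how age and PF4 treatment relate to hippocampal gene expression.

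Complement is a cascade of proteins that tags material for removal. In the classical pathway, the recognition molecule C1q, assembled from the chains encoded by C1qa, C1qb and C1qc, starts a protease cascade that cleaves C4. This leads to cleavage of C3, whose fragments coat targets and are read by receptors on phagocytes. In the brain, microglia are the main source of C1q, and C1q and C3 take part in the removal of synapses. C3ar1 and C5ar1 encode the receptors for the small fragments C3a and C5a. Serping1 encodes the C1 inhibitor, which blocks the first proteases of the cascade, and Cd59a encodes a membrane protein that blocks the final pore.

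The 3 C1q genes lie side by side on the minus strand of chromosome 4 in GRCm38: C1qb at chr4:136880129-136886187, C1qc at chr4:136889804-136893065 and C1qa at chr4:136895917-136898803. C4b lies at chr17:34728380-34743882 and C3 at chr17:57203970-57228136, both on the minus strand. C3ar1 is at chr6:122847138-122856161 and C5ar1 at chr7:16246743-16259540, both on the minus strand. Serping1 is at chr2:84765387-84775444 on the minus strand and Cd59a at chr2:104095801-104115354 on the plus strand. All are protein-coding genes in the GENCODE vM21 annotation. Because C1qb and C1qc moved together from mouse to mouse, the sequence before each gene is shown, as RefSeq gives it for GRCm38.p6. The sequences run 5′ to 3′ on the gene's strand and stop before the first base of both the RefSeq and the GENCODE gene.
C1qb, chr4:136886201-136886450, minus strand: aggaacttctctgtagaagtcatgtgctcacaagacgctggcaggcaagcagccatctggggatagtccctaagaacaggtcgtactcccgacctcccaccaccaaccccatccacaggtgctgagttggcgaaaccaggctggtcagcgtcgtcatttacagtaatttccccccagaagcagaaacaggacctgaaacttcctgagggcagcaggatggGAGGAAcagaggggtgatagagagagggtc
C1qc, chr4:136893066-136893164, minus strand: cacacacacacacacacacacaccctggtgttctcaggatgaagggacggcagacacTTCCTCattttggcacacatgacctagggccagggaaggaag
The capitals mark matches, on either strand, to GAGGAA, the core of the motif bound by PU.1, a transcription factor of the myeloid lineage that includes microglia. The match lay 30 bases before the RefSeq start of C1qb, on the gene's strand, and 193 bases before that of C1qc, on the other strand. The same letters occurred in 23.3% of 32851 RefSeq promoters over 250 bases, and in 9.91% over the 99 bases that correspond to the C1qc stretch. GAGGAA also matched 62 bases before Cd59a, whose promoter is not shown, but not in the promoters of C3, C3ar1 and C5ar1. Of the other motifs searched on both strands, TGACTCA (AP-1, in 4.46% of promoters) matched C3ar1, GAAANNGAA (interferon response, 7.13%) matched C5ar1 and Cd59a, and TTCNNNGAA (STAT, 7.02%) matched none of the 6. The matches are letters in a window and not measured sites. RefSeq promoters were found for 6 of the 9 genes. C1qa, C4b and Serping1 were not among them.

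Total counts ranged from 2242879 to 21112908 a library (median 10374007), and 8 libraries had 4963272 or fewer (4 Old Veh, 2 Young PF4, 1 Young Veh and 1 Old PF4). The labels number the Old Veh libraries 1 to 12, the Old PF4 libraries 13 to 23 and the young libraries 24 to 48, so library order and age, and library order and treatment in old mice, cannot be told apart. With library number as a covariate, edgeR called 0 of the 17778 genes tested in each comparison, the 9 genes included (C4b with age 0.45, SE 0.31, in vehicle and 0.82, SE 0.28, in PF4-treated mice on the log2 scale). Summed markers of hippocampal neurons lay between 1938 and 2765 CPM (read counts scaled to library size) in every library. Choroid plexus markers, from the epithelium that borders the hippocampus and makes cerebrospinal fluid, differed far more. Their summed level was 12.0 to 452 CPM in 23 libraries (5 Young Veh, 4 Young PF4, 8 Old Veh and 6 Old PF4) and 1004 to 4259 CPM in the other 24 (8, 8, 4 and 4). In bulk tissue, fewer cells of a type and less RNA per cell cannot be told apart.

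All 9 genes passed the filter on low counts. Per kilobase of exon, C1qb was the most abundant, at 45.4 ± 7.59 CPM (SD, n = 47). C1qa followed at 29.2 ± 5.47, C1qc at 18.8 ± 3.50 and C4b at 10.1 ± 5.39 CPM per kilobase. These means pool the ages. The means of C4b and Cd59a were 6.645 and 5.61 in Young Veh, 6.44 and 6.38 in Young PF4, 13.07 and 3.93 in Old Veh, and 15.4 and 4.15 in Old PF4 mice. Cd59a (5.07 ± 2.85) and Serping1 (4.52 ± 2.04) overlapped in their spread, and their difference over the same mice was not tested. C3 (0.732 ± 0.366), C3ar1 (0.654 ± 0.237) and C5ar1 (0.646 ± 0.241) were lowest on the same per-kilobase scale. Their spreads also overlapped, and their order was not tested. The depth behind these levels was uneven. C1qb had 106 to 1285 reads a library and C4b 95 to 2417, whereas C3 had 5 to 157, C3ar1 2 to 57 and C5ar1 1 to 39.

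**Figure D1:**
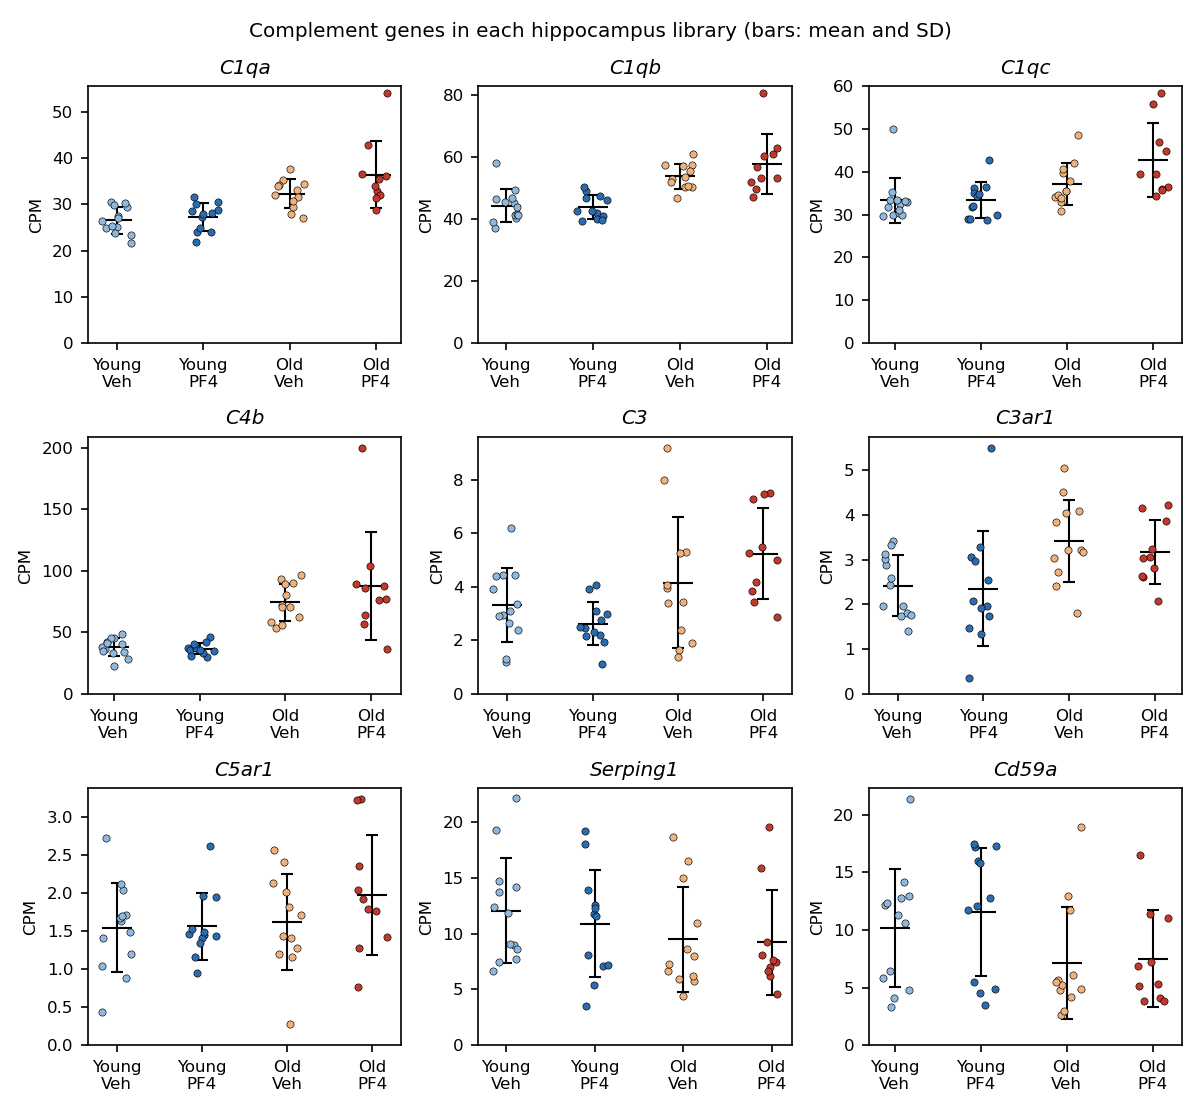
CPM (linear axis from 0) of each complement gene in each mouse, by group; points are mice, and horizontal bars with whiskers are the mean and SD. All 12 Old Veh mice lie above every Young Veh mouse for C4b, whereas Serping1 and Cd59a overlap widely between ages.

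In vehicle mice, C4b and 2 of the 3 C1q genes were higher in old than in young hippocampus. The ratio of the mean levels was 1.97 for C4b, 1.22 for C1qa and 1.21 for C1qb. Of the 9 genes, 3 were called higher and 0 lower by edgeR's quasi-likelihood test at a Benjamini-Hochberg adjusted p below 0.05, where 2.77% of the 17778 genes tested were called. The median log2 fold change of the 9 genes was 0.28, beside -0.01 over all genes tested.

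C4b encodes mouse complement component C4. Its level ran from 22.8 to 49.0 CPM in Young Veh mice (median 37.8) and from 53.6 to 96.7 CPM in Old Veh mice (median 71.6). The groups did not overlap, with 12 of 12 Old Veh mice above every Young Veh mouse. For such counts of mice, here and below, the share of all genes tested that separate as fully is not given. The log2 fold change of C4b was 0.97 (SE 0.15, adjusted p = 2.8e-05 by edgeR's quasi-likelihood test). The C4b transcript shares 35.2% of its 50-base stretches with C4a, its near-identical neighbour, which held 194 reads over all libraries against 26734 on C4b. How reads in the shared stretches were assigned is not given in the sources used here. No C4a library held more than 13 reads.

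C1qa and C1qb had smaller fold changes than C4b, a difference that was not tested. C1qa ran from 21.6 to 30.6 CPM in Young Veh mice (median 26.5) and from 27.03 to 37.6 CPM in Old Veh mice (median 32.6), and 9 of 12 Old Veh mice lay above every Young Veh mouse. Its log2 fold change was 0.28 (SE 0.07, edgeR adjusted p = 0.026). C1qb ran from 37.04 to 57.9 CPM (median 43.8) and from 46.8 to 60.8 CPM (median 53.2). Here the groups overlapped: 12 of 12 Old Veh mice were above the Young Veh median but 1 was above every Young Veh mouse. The log2 fold change of C1qb was also 0.28 (SE 0.06, edgeR adjusted p = 0.0079). C1qc ran from 29.8 to 49.9 CPM (median 32.6) and from 30.9 to 48.8 CPM (median 35.5), with a log2 fold change of 0.16 (SE 0.08, edgeR adjusted p = 0.37) that was not called. Without the 8 shallowest libraries, C1qa (0.26, adjusted p = 0.13) and C1qb (0.28, adjusted p = 0.0504) were no longer called by edgeR, and C4b was (0.91, adjusted p = 0.0018). Without Old Veh replicate 3, C1qa had an edgeR adjusted p of 0.053.

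The other 5 genes were not called in vehicle mice. C3, the central component on which all routes of activation meet, was 1.19 to 6.19 CPM (median 3.11) in Young Veh and 1.37 to 9.19 CPM (median 3.70) in Old Veh mice. The groups overlapped, with 2 of 12 old mice above every young mouse, and the log2 fold change was 0.31 (SE 0.23, edgeR adjusted p = 0.55). The receptor gene C3ar1 was 1.40 to 3.41 CPM (median 2.44) in Young Veh and 1.81 to 5.05 CPM (median 3.21) in Old Veh mice, with 5 of 12 old mice above every young mouse. Its log2 fold change was 0.45 (SE 0.18, edgeR adjusted p = 0.20). C5ar1 had a log2 fold change of 0.07 (SE 0.20). Both regulators lay below 0, Serping1 at -0.37 (SE 0.24, edgeR adjusted p = 0.48) and Cd59a at -0.50 (SE 0.31, edgeR adjusted p = 0.45). With 1 library left out at a time, C3 ranged from 0.18 to 0.42 and Cd59a from -0.80 to -0.34.

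The PF4-treated mice share no library with the vehicle mice and gave a separate age comparison. C4b, C3 and all 3 C1q genes were higher in old than in young mice. Of the 9 genes, 5 were called higher and 0 lower, where edgeR called 0.332% of the 17778 genes tested. The median log2 fold change of the 9 genes was 0.40, beside 0.00 over all genes tested.

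C4b was 29.7 to 46.1 CPM (median 36.5) in Young PF4 and 36.7 to 199.7 CPM (median 81.5) in Old PF4 mice. Of the 10 Old PF4 mice, 9 lay above every Young PF4 mouse. The log2 fold change was 1.26 (SE 0.16, edgeR adjusted p = 2.2e-06). The highest value belonged to Old PF4 replicate 3, and without it the fold change was 1.03.

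C1qa was 21.9 to 31.6 CPM (median 28.1) in Young PF4 and 28.9 to 54.0 CPM (median 34.8) in Old PF4 mice. C1qb was 39.4 to 50.2 CPM (median 42.6) and 46.9 to 80.6 CPM (median 55.0) in the same groups. For both genes 8 of 10 Old PF4 mice lay above every Young PF4 mouse. The log2 fold changes were 0.42 for C1qa (SE 0.08, edgeR adjusted p = 0.0026) and 0.40 for C1qb (SE 0.07, edgeR adjusted p = 0.0018). C1qc was 28.8 to 42.9 CPM (median 33.2) in Young PF4 and 34.3 to 58.6 CPM (median 39.5) in Old PF4 mice, and 4 of 10 old mice lay above every young mouse. Its log2 fold change was 0.37 (SE 0.09, edgeR adjusted p = 0.043).

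C3 was 1.13 to 4.05 CPM (median 2.48) in Young PF4 and 2.89 to 7.51 CPM (median 5.14) in Old PF4 mice, with 7 of 10 old mice above every young mouse. The log2 fold change was 1.06 (SE 0.25, edgeR adjusted p = 0.032). The calls of C3 and C1qc lay near the threshold. C3 lost its call in 12 of 22 fits that each left out 1 library (Young PF4 replicates 2, 4, 5, 6, 7, 9 and 11 and Old PF4 replicates 2, 3, 6, 7 and 10), with edgeR adjusted p of 0.0501 to 0.0771. Without the 8 shallowest libraries, C1qc was also not called (0.38, edgeR adjusted p = 0.094), nor was it with no count filter (0.37, edgeR adjusted p = 0.060) or with the PF4-treated groups fitted alone (0.36, edgeR adjusted p = 0.12). C1qc lost its call in 13 of 22 (Young PF4 replicates 2, 3, 5, 6, 7, 9, 10, 11 and 12 and Old PF4 replicates 3, 6, 7 and 8), with edgeR adjusted p of 0.0511 to 0.127. C4b, C1qa and C1qb were called in all 22.

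Among the remaining genes, C3ar1 had a log2 fold change of 0.52 (SE 0.20, edgeR adjusted p = 0.39) and C5ar1 of 0.34 (SE 0.22, edgeR adjusted p = 0.73). With 1 library left out at a time, C5ar1 ranged from 0.21 to 0.43. All 10 Old PF4 mice exceeded the Young PF4 median of C3ar1, yet none exceeded the highest Young PF4 mouse, at 5.48 CPM in one of the 8 shallowest libraries (replicate 10). Serping1 was at -0.20 (SE 0.26, and -0.37 to -0.10 with 1 library left out at a time) and Cd59a at -0.59 (SE 0.33, edgeR adjusted p = 0.67). With the age contrasts of the Veh and PF4 mice averaged in 1 fit, an alternative chosen after the data were seen, 6 of the 9 genes were called higher, where edgeR called 4.71% of the genes tested. These were C4b (1.12), C3 (0.69), C1qa (0.35), C1qb (0.34), C1qc (0.26) and C3ar1 (0.48, SE 0.13, edgeR adjusted p = 0.025), all as log2 fold changes.

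**Figure D2:**
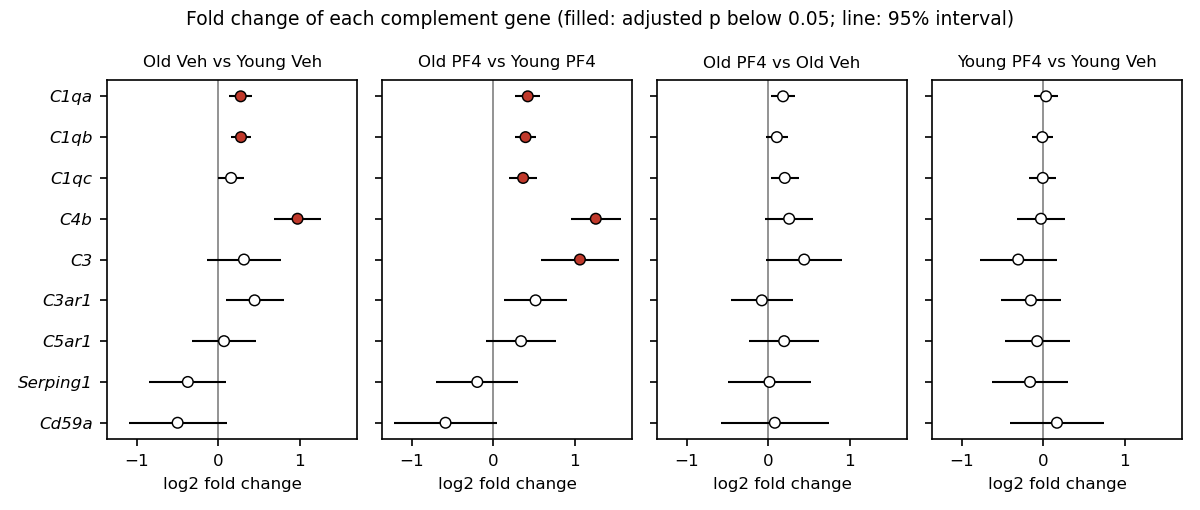
Log2 fold change (x axis) of each complement gene in 4 comparisons, with approximate 95% intervals; filled points have an edgeR adjusted p below 0.05. C4b, C1qa and C1qb are filled in both age comparisons, C3 and C1qc are filled in the PF4-treated mice, and no point is filled in the treatment comparisons.

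PF4 treatment did not change any of the 9 genes past the threshold at either age. In old mice, edgeR called 0 of 9 genes where 0.0337% of all genes tested were called. DESeq2 also called 0, and 2 of the 9 genes (C1qa and C1qc) had an unadjusted p below 0.05, as had 6.2% of all genes tested. The Old Veh libraries serve here as the controls and in the vehicle age comparison as the old group, so the 2 comparisons are not independent. C4b had a median of 71.6 CPM in Old Veh and 81.5 CPM in Old PF4 mice, and 7 of 10 Old PF4 mice exceeded the Old Veh median. Its log2 fold change was 0.26 (95% interval -0.04 to 0.55, edgeR adjusted p = 0.89). Without Old PF4 replicate 3 the fold change of C4b was 0.03. The log2 fold change of C3 was 0.44 (95% interval -0.03 to 0.91, edgeR adjusted p = 0.86), that of C1qa was 0.18 (0.03 to 0.33, edgeR adjusted p = 0.73) and that of C1qc was 0.20 (0.03 to 0.37, edgeR adjusted p = 0.74). Without Old PF4 replicate 3, C1qa was at 0.10 and C1qb moved from 0.10 to 0.04. C3ar1 (-0.08), C5ar1 (0.19), Serping1 (0.01) and Cd59a (0.08) had log2 fold changes within 1 SE of 0. With 1 library left out at a time, C3ar1 ranged from -0.15 to -0.03 and C5ar1 from 0.06 to 0.285.

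In young mice, edgeR called 0 of 9 genes and 0% of all genes tested, DESeq2 called 0, and 0 of the 9 genes had an unadjusted p below 0.05, against 1.2% of all genes tested. C4b was at a median of 37.8 CPM in Young Veh and 36.5 CPM in Young PF4 mice, a log2 fold change of -0.03 (95% interval -0.32 to 0.26). The C1q genes had log2 fold changes between -0.01 and 0.03, with intervals inside -0.17 to 0.18. The largest differences were -0.31 for C3 (95% interval -0.78 to 0.16) and 0.17 for Cd59a (-0.41 to 0.74).

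The PF4 effect in old mice minus that in young mice was tested for each gene as an interaction in the same fit. edgeR called 0 of 9 genes and 0% of all genes tested, and DESeq2 called 0. An unadjusted p below 0.05 was found for 1 of the 9 genes and for 3.98% of all genes tested. The gene was C3, with a difference of 0.75 on the log2 scale (95% interval 0.08 to 1.41, edgeR adjusted p = 1). For C4b the difference was 0.29 (95% interval -0.13 to 0.70). The age effects of PF4 and vehicle mice, of which this is also the difference, were therefore not shown to differ for C3 or C1qc.

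Beside the 9 genes, 45 other genes of the classical, lectin, alternative and terminal pathways, receptors and regulators were listed by role, of which 24 were tested. Of the 24, 0 were called in each of the 5 comparisons of the design, where edgeR called 2.77% of all genes tested with age in vehicle mice, 0.332% with age in PF4-treated mice, 0.0337% under PF4 in old mice, 0% under PF4 in young mice and 0% in the interaction. A count of 0 among 24 genes is near these shares. With the 9 genes included, 11, 7, 5, 0 and 2 of the 33 genes tested had an unadjusted p below 0.05 in these comparisons, in the same order, where 15.2%, 8.27%, 6.2%, 1.2% and 3.98% of all genes tested did. Of the classical pathway, 7 of 10 genes were tested, and those called were C1qa, C1qb and C4b in vehicle mice, with C1qc in addition in PF4-treated mice. The lectin pathway had 2 of 8 genes tested and the terminal pathway 1 of 7. Of 9 receptor genes, 7 were tested and 0 called, with 6 above 0 in vehicle mice and 7 in PF4-treated mice, beside 45.3% and 51.7% of all genes tested (median log2 fold change of the receptors 0.29 in each). Of 16 regulators, 13 were tested and 0 called, with medians of -0.05 and -0.06. Itgb2, the shared chain of the integrin receptors for C3 fragments, had log2 fold changes of 0.41 (edgeR adjusted p = 0.093) and 0.55 (edgeR adjusted p = 0.078). It was called with both treatments averaged, where 4.71% of all genes tested were called (0.48, edgeR adjusted p = 0.0015), as was Csmd3, a large neuronal membrane protein with complement control domains (0.17, edgeR adjusted p = 0.024).

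Within the old groups, C4b was higher in the oldest mice. The ages fell into 2 clusters, 16 mice of 17.4 to 18.0 months and 6 mice of 19.47 to 20.23 months, so the clusters were compared in place of a correlation. In Old Veh mice C4b was 53.6 to 88.9 CPM (median 70.8) under 19 months and 89.7 to 96.7 CPM (median 93.1) over 19 months. The ages did not overlap there, and the share of all genes tested without such overlap is not given here. In Old PF4 mice C4b was 36.7 to 89.3 CPM (median 77.3) and 76.5 to 199.7 CPM (median 103.5), where the ages overlapped. The mean difference, taken within treatment, was 0.62 on the log2 CPM scale (exact permutation test, two-sided, p = 0.0016 over 26400 arrangements). It was 0.47 in vehicle mice and 0.77 in PF4-treated mice, where it was 0.38 without Old PF4 replicate 3. C1qa (0.20, exact permutation p = 0.039) and C1qb (0.17, exact permutation p = 0.037) were the other genes of the 9 with p below 0.05. In an edgeR fit of the old mice over all genes, however, 0 of 9 genes and 0% of the 16635 genes tested were called, and 9.14% of them had an unadjusted p below 0.05. The edgeR estimate for C4b was 0.67 on the log2 scale (SE 0.16, adjusted p = 0.29), and 0.42 without Old PF4 replicate 3.

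These differences rest on few mice. The 6 oldest are replicates 1 to 3 of each old group, and 3 of them (Old Veh replicates 2 and 3 and Old PF4 replicate 1) are among the 8 shallowest libraries. The 6 oldest are also libraries 1 to 3 and 13 to 15, the first of each old group. Age over 19 months and library order within the old groups therefore cannot be told apart. Without the shallowest libraries the C4b difference was 0.81 (exact permutation p = 0.0035, the smallest that 288 arrangements can give), and those of C1qa and C1qb had p of 0.14 in the same exact permutation test. Without Old PF4 replicate 3, C4b was at 0.42 (exact permutation p = 0.033), C1qa at 0.09 (p = 0.28, exact permutation) and C1qb at 0.08 (p = 0.25, exact permutation). Among the 16 mice under 19 months, C4b and age had a Pearson r of 0.34 and a Spearman rho of 0.42 after group means were removed (permutation p = 0.25 and 0.12), and r was 0.29 without the 2 mice farthest from the median age. None of the 9 genes had an adjusted p below 0.05 in that correlation (9 tested).

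**Figure D3:**
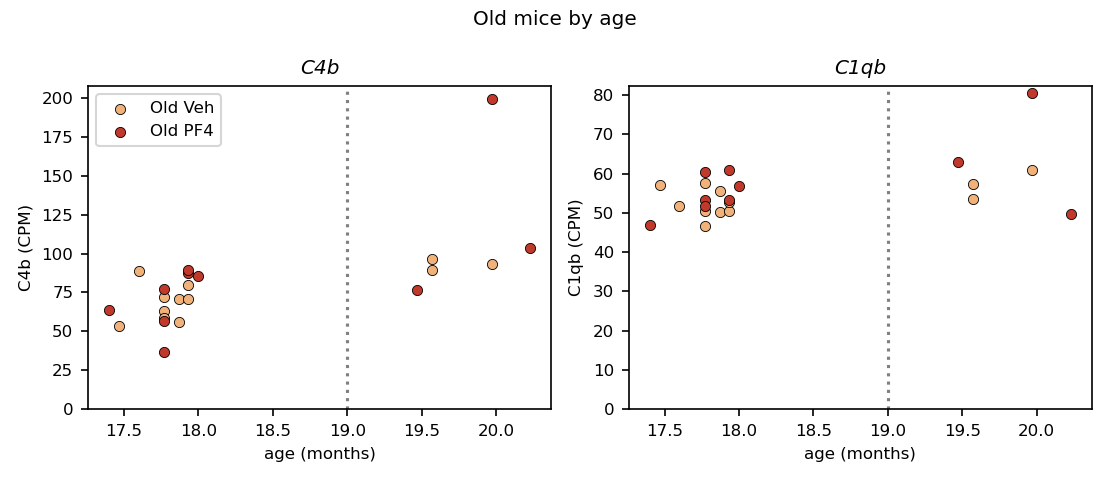
C4b and C1qb in CPM (y axes from 0) against age in months in the 22 old mice; the dotted line at 19 months separates the 2 clusters of ages. The 3 Old Veh mice over 19 months lie at 89.7 CPM or more of C4b, and the mouse at 199.7 CPM is Old PF4 replicate 3.

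Log2 CPM minus the group mean was compared over the 47 mice for all 36 pairs of the 9 genes, and 7 pairs passed a Benjamini-Hochberg adjusted permutation p of 0.05 for Pearson's r. The C1q genes followed each other, with r of 0.67 for C1qa and C1qb (rho 0.60, adjusted permutation p = 0.00036), 0.60 for C1qa and C1qc (rho 0.64, adjusted permutation p = 0.00036) and 0.67 for C1qb and C1qc (rho 0.55, adjusted permutation p = 0.00018). Without the 2 mice farthest from the median these r were 0.53, 0.50 and 0.60.

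C4b followed C3, with r of 0.61 (rho 0.62, adjusted permutation p = 0.00018), 0.84 in young and 0.51 in old mice. C4b also followed C1qa (r = 0.56, rho 0.50, adjusted permutation p = 0.0053), but r was 0.24 in young and 0.73 in old mice, and 0.37 without Old PF4 replicate 3. With C1qb the r was 0.30 (adjusted permutation p = 0.27), falling to 0.02 without that mouse, and with C1qc it was -0.01. The regulators formed the remaining links, Serping1 with C3 (r = 0.46, rho 0.44, adjusted permutation p = 0.0072) and Serping1 with Cd59a (r = 0.50, rho 0.48, adjusted permutation p = 0.0052), with r of 0.40 and 0.45 without the 2 mice farthest from the median. Both r span the libraries of low and high choroid plexus markers, between which Serping1 and Cd59a differed. They were not computed within each set. C3ar1 and C5ar1 entered no pair that passed.

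The genes outside the complement lists whose levels ran most like the mean of the 3 C1q genes, of 17745 ranked over the 47 libraries after group means were removed, included Gfap (r = 0.82), Ctss (0.77), Trem2 (0.68) and Tspan15 (0.65). Gfap encodes the intermediate filament of astrocytes, Ctss a lysosomal protease of myeloid cells, and Trem2 a lipid receptor of microglia. For C4b they were App (0.77), Pacs2 (0.77), Neat1 (0.76), Phldb1 (0.75) and Cldn11 (0.75). App encodes the amyloid precursor protein, Neat1 a long non-coding RNA of nuclear paraspeckles and Cldn11 a tight junction protein of myelin. The r values for likeness are descriptions, without a test. They include Old PF4 replicate 3, which lay farthest above its group mean for C4b (1.32) and the C1q mean (0.52) in log2 CPM. Values without that mouse are not given here.

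Markers of other cell types moved with several of the 9 genes. The 10 microglia markers summed to 370 to 453 CPM in Young Veh, 374 to 459 in Young PF4, 402 to 533 in Old Veh and 418 to 573 in Old PF4 mice, and 10 of 10 had a log2 fold change above 0 in both age comparisons, as had 45.3% (vehicle) and 51.7% (PF4) of all genes tested. Tyrobp, an adaptor of microglial receptors, was called in vehicle mice (0.41, edgeR adjusted p = 0.012), and Trem2 (0.62, edgeR adjusted p = 0.0018) in PF4-treated mice. Within groups, the microglia score (mean log2 CPM of the markers) followed C1qa (r = 0.60, rho 0.54), C1qb (r = 0.65, rho 0.51) and C1qc (r = 0.62, rho 0.60), with adjusted permutation p of at most 0.0032 among 72 pairs of a gene and a list chosen after the data were seen. It also followed C5ar1 (r = 0.41, rho 0.29, adjusted permutation p = 0.023 for r and 0.20 for rho). With that score as a covariate, the log2 fold changes with age in vehicle and PF4-treated mice were 0.06 and 0.11 for C1qa, 0.08 and 0.09 for C1qb, and -0.12 and -0.03 for C1qc. None of these was called by edgeR. C4b was at 0.68 in vehicle mice (edgeR adjusted p = 0.012) and 0.80 in PF4-treated mice (edgeR adjusted p = 0.097), and C3 at 0.29 and 1.03 (edgeR adjusted p = 0.67 and 0.27). Under PF4 in old mice the score as a covariate gave 0.08 for C4b, 0.08 for C1qa, 0.01 for C1qb and 0.09 for C1qc. Without it these were 0.26, 0.18, 0.10 and 0.20. C3 was at 0.43 with the score and 0.44 without.

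Astrocyte markers summed to 4167 to 5538 CPM in young and 4521 to 5809 CPM in old mice. Gfap had log2 fold changes of 0.27 in vehicle mice (edgeR adjusted p = 0.057) and 0.49 in PF4-treated mice (edgeR adjusted p = 0.0018). In Old PF4 mice Gfap ran from 587 to 1336 CPM (median 688), and its fold change without the highest mouse is not given here. Of the other 9, Slc1a2 (0.19) and S100b (0.24) were called higher and Aldh1l1 (-0.19) lower in vehicle mice. The astrocyte score followed C1qb (r = 0.49, rho 0.51, adjusted permutation p = 0.0066 for r) and C1qc within groups (r = 0.73, rho 0.62, adjusted permutation p = 0.00014 for r). Its part in the age differences of the C1q genes was not tested.

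The 2 regulators ran with markers of the brain's borders. Serping1 followed the score of 7 meningeal fibroblast markers with r of 0.90 (rho 0.89, adjusted permutation p = 0.00014 for r), 0.95 in young and 0.85 in old mice, and 0.89 without the 2 mice farthest from the median. It also followed perivascular macrophage markers (r = 0.77, rho 0.79) and endothelial markers (r = 0.60, rho 0.61). The other pairs that passed were C4b with endothelial markers (r = 0.40, rho 0.46, adjusted permutation p = 0.0499 for r), Cd59a with meningeal fibroblast markers (r = 0.57, rho 0.55) and Cd59a with neuron markers (r = -0.57, rho -0.59). For the choroid plexus score no r over all mice is given, since the libraries formed 2 clusters. The r of Cd59a and Serping1 with the other lists span both clusters and were not computed within each. The summed fibroblast markers were 66.3 to 239 CPM in Young Veh, 58.2 to 193 in Young PF4, 38.5 to 198 in Old Veh and 66.2 to 199 in Old PF4 mice. Of these markers Col1a1, a collagen chain, was called lower in Old Veh mice (-0.88, edgeR adjusted p = 0.030).

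Cd59a split with the choroid plexus markers. It was 2.63 to 7.22 CPM (median 4.82) in the 23 libraries with low choroid plexus markers and 5.46 to 21.4 CPM (median 12.8) in the 24 libraries with high ones. Among the latter it followed the choroid plexus score (r = 0.80, rho 0.66, permutation p = 0.00042 and 0.0013, adjusted p = 0.0017 over the 4 within-cluster correlations of Cd59a and Serping1), with r of 0.63 without the 2 mice farthest from the median. Among the former it did not pass (r = 0.24, permutation p = 0.34). Serping1 was 3.49 to 14.99 CPM (median 7.215) in the libraries with low markers and 7.03 to 22.1 CPM (median 12.1) in those with high ones. Within the low set Serping1 did not pass with the score (r = 0.27, rho 0.41, permutation p = 0.23 and 0.079). Nor did it within the high set (r = -0.01, rho -0.06, permutation p = 0.96 and 0.80). With the choroid plexus score as a covariate, the log2 fold change of Cd59a with age was 0.14 in vehicle and 0.04 in PF4-treated mice, against -0.50 and -0.59 without it. The corresponding values of Serping1 were -0.10 and 0.09, against -0.37 and -0.20. With that covariate C4b was at 0.93 and 1.21 and was called in both comparisons, whereas C1qa in vehicle mice (0.24, edgeR adjusted p = 0.084) and C1qc in PF4-treated mice (0.34, edgeR adjusted p = 0.085) were no longer called. Summed endothelial markers (142 to 224 CPM) and blood markers (0.372 to 18.2 CPM, 2 of 5 genes tested) had 0 genes called with age, as had the 3 of 5 perivascular macrophage markers tested (2.13 to 17.4 CPM summed) and the 6 neuron markers, where 2.77% (vehicle) and 0.332% (PF4) of all genes tested were called. The 10 choroid plexus markers also had 0 called, but all 10 lay below 0 in both age comparisons, at -1.13 to -0.80 in vehicle and -1.20 to -0.89 in PF4-treated mice on the log2 scale. Their summed median was 1943 CPM in Young Veh, 2380 in Young PF4, 47.1 in Old Veh and 65.9 in Old PF4 mice.

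**Figure D4:**
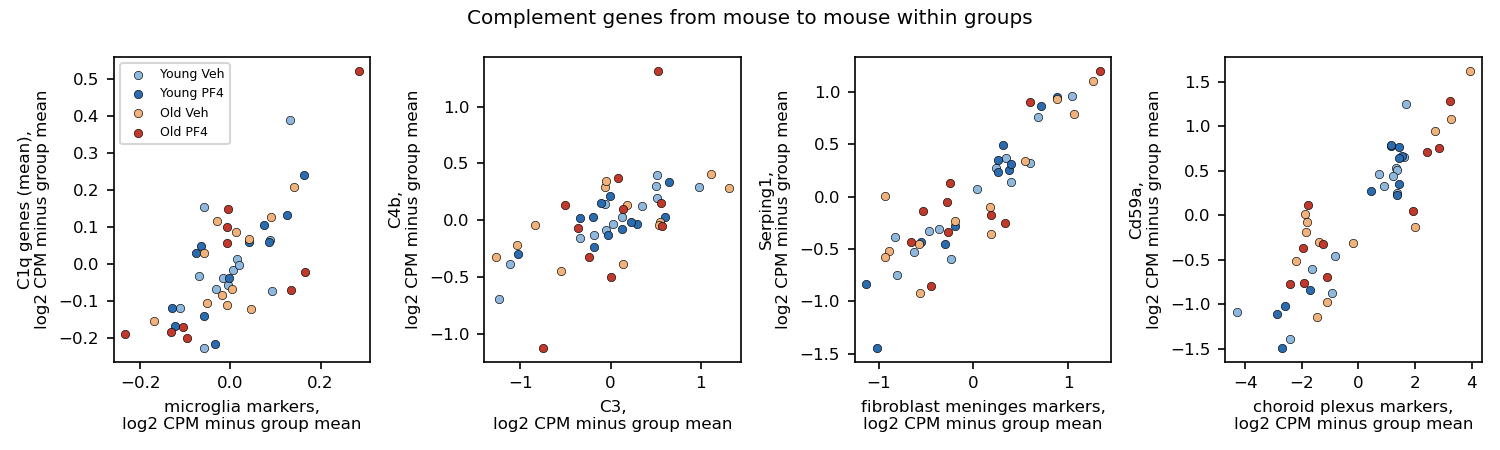
Log2 CPM minus the group mean of the mean C1q level, C4b, Serping1 and Cd59a (y axes) against the microglia marker score, C3, the meningeal fibroblast score and the choroid plexus score (x axes) in 47 mice. Serping1 rises with the fibroblast score (r = 0.90), and Cd59a is split between libraries of low and high choroid plexus score.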

How the data were processed

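The authors deposited raw read counts for 35486 genes in 47 libraries, made with the Smart-Seq2 method without strand information. According to the submitters' processing notes, reads were trimmed with Trim Galore 0.3.7 and aligned with STAR 2.5.3a to GRCm38. The counting tool is not given in the sources used here. Samples were grouped by the age and treatment in their labels. All 4 groups entered 1 quasi-likelihood model in edgeR 4.0.16 (R 4.3.3). TMM scaled the libraries, filterByExpr kept 17778 genes, and p-values were adjusted over all of them by the Benjamini-Hochberg method. DESeq2 1.42.0, the authors' tool, was an alternative. Log2 CPM used a prior count of 2. Correlations used log2 CPM minus the group mean and 100000 permutations within groups, two-sided. The planned correlation with age in old mice was replaced by a comparison of 2 age clusters. CPM used TMM-scaled library sizes, and CPM per kilobase the exonic length in GENCODE vM21. Sequence shared between genes was counted in 50-base stretches of transcripts. Of these steps, the edgeR fit was tested on simulated counts, for the age comparison in vehicle mice only. The 9 genes, the complement lists and the marker lists were chosen with earlier results of these data known. The genes named are the 9, any other listed complement gene called in a comparison, C4a, the 5 genes most like C4b and the C1q mean, Gfap and markers called with age. A gene that this rule would name is not reported here. Fold changes are on the log2 scale, and p-values measure the spread between mice, each library being 1 mouse.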

Additional observations from a re-analysis of the deposited data

How the results depend on the processing

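The number of the 9 complement genes called with age kept within 1.5 times its value under DESeq2, DESeq2 size factors, no count filter, a fit of the compared groups alone and the choroid plexus covariate. In vehicle mice, 3 genes were called, against 1 with the microglia score as a covariate (C4b), 1 without the 8 shallowest libraries (C4b), 0 with a library number term, and 6 with both treatments averaged, an alternative chosen after seeing the data. In PF4-treated mice, 5 were called, against 0 with the microglia score and 0 with library number. Over all 17778 genes, the microglia score moved the calls from 492 to 543 in vehicle and from 59 to 7 in PF4-treated mice, and library number left 0 in both. Without the 8 shallowest libraries 176 and 41 genes were called. Library number runs with age, so the terms cannot be told apart, and the standard error of C4b was 0.31 with it against 0.15 without. Leaving out 1 library at a time gave 2 to 3 called genes in vehicle mice and 3 to 5 in PF4-treated mice. The count for PF4 was 0 of 9 at each age and for the interaction under every alternative run. The interaction needs all 4 groups, so it has no fit of fewer groups. The number of pairs of genes correlated over mice was 7, against 7 with a prior count of 0.5, 6 without the 2 farthest mice and 7 without the shallowest libraries. The number of genes with an exact permutation p below 0.05 between the age clusters of the old mice was 3, against 1 without those libraries.

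Directions turned for genes that were not called, and for C1qa and C1qc in 1 setting or more. With library number as a covariate, the log2 fold changes in vehicle mice were -0.042 for C3, -0.0505 for C1qa, -0.0684 for C1qc and -0.31 for C5ar1, and in young mice under PF4 they were 0.11 for C4b, 0.0616 for C1qb, 0.0559 for C1qc and 0.0345 for C5ar1. With the microglia score they were -0.12 for C1qc and -0.27 for C5ar1 in vehicle mice, -0.0291 for C1qc, -0.15 for C5ar1 and 0.0559 for Serping1 in PF4-treated mice, and 0.0157 for Cd59a in the interaction. With the choroid plexus score they were 0.14 for Cd59a in vehicle mice, 0.0445 for Cd59a and 0.0859 for Serping1 in PF4-treated mice, and -0.013 for Serping1 under PF4 in old mice. Serping1 under PF4 in old mice was 0.01, and -0.0285 under DESeq2. The cause was not tested for any of these. Leaving out 1 library gave ranges of -0.0161 to 0.15 for C5ar1 in vehicle mice, where it turned without Young Veh replicate 12 or Old Veh replicate 5, and of -0.16 to 0.20 for Serping1 and -0.13 to 0.38 for Cd59a under PF4 in old mice.

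The labels tie same-numbered replicates to nothing but their number, although replicates 1 to 3 of both old groups also share the older ages. The correlations of their deviations had a median of 0.11 between Old Veh and Old PF4 (5 of 10 pairs above 0.1) and of -0.04 between Young PF4 and Old PF4 (3 of 10 pairs above 0.1), and 2 and 0 pairs correlated best with their own number. With the replicate block, 3 and 5 genes were called with age and 0 under PF4, and Serping1 under PF4 in old mice was at -0.0036. Over all genes the block moved the calls with age in PF4-treated mice from 59 to 90 and those under PF4 in old mice from 6 to 10, and DESeq2 gave 90 and 24. C3, C3ar1 and C5ar1 rest on the fewest reads, with medians of 30, 26 and 17 a library.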
